A study of Mus musculus with 18 samples.

Results

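The genes described here are 34 markers of hepatic stellate cells and liver fibroblasts, taken by symbol from a deposited table of raw read counts for 20105 genes. All 34 symbols were found, each once. By role they comprise 9 genes of retinoid storage and stellate identity (Reln, Lrat, Des, Rgs5, Ngfr, Cygb, Ecm1, Colec11, Sgcd), 3 transcription factors (Hand2, Lhx2, Tcf21), 3 secreted ligands and guidance cues (Hgf, Slit3, Tgfb3), 5 receptors (Pdgfrb, Pdgfra, Pth1r, Ednra, Ednrb), 5 fibrillar collagen genes (Col1a1, Col1a2, Col3a1, Col5a1, Col5a2), 8 other matrix proteins and matrix enzymes (Dcn, Lum, Adamtsl2, Bgn, Sparc, Loxl1, Lama1, Dpt) and the contractile gene Acta2.

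Hepatic stellate cells lie between hepatocytes and the sinusoidal endothelium and store vitamin A as retinyl esters in lipid droplets. On injury they can turn into myofibroblasts that contract and deposit fibrillar collagen, under the control of transforming growth factor beta and platelet-derived growth factor. Portal fibroblasts surround the bile ducts and vessels of the portal tracts and share many matrix genes with stellate cells.

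RNA was sequenced from liver nuclei of female HEP-INTACT mice, whose hepatocyte nuclei carry a tag that lets them be captured by immunoprecipitation (IP). All 6 mice carried the tag. The fasted mice went without food for 16 h from zeitgeber time 12, when their active phase begins, and the fed controls had free access to food and were killed at the same hour. RNA was not selected for poly-A tails, so unspliced transcripts were among the RNA sequenced. The 6 groups of 3 libraries were Frozen_IP_fasted and Frozen_IP_fed (tagged nuclei from frozen liver), Fresh_IP_fasted and Fresh_IP_fed (tagged nuclei from fresh liver), and Fresh_Sup_fasted and Fresh_Sup_fed (the supernatant, that is the nuclei left after the pull-down from fresh liver). Each group came from 3 mice, and the titles carry the same mouse numbers in the 3 preparations. The sources used here give neither the age of the mice nor the promoter behind the tag. Total counts ran from 13828945 in 1 library of frozen IP from fed mice (library B) to 54434263 in 1 library of fresh IP from fasted mice. Levels are in CPM, read counts divided by library size after scaling by TMM, a method that adjusts for composition differences between libraries, and libraries of a group are called A, B and C after the columns of the count table.

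The supernatant was a mixture of cell types. The CPM of the 34 genes summed to 1609 to 1979 in fasted supernatant and 1533 to 2330.0 in fed supernatant. In the same libraries, 19 endothelial markers summed to 3843 to 5234 CPM in fasted and 3124 to 4123 CPM in fed mice, 18 Kupffer cell markers to 5935 to 7874 and 7413 to 10090.0 CPM, and 20 hepatocyte markers to 1036 to 1692 and 671 to 1179 CPM. Each of 7 defining stellate markers (Lrat, Reln, Des, Lhx2, Hand2, Colec11 and Ecm1) was detected in every supernatant library and was lower in fresh IP. In such bulk samples, fewer nuclei of a type and less RNA in each nucleus cannot be told apart.

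Levels of different genes were compared only per kilobase of gene span, introns included, because the length given with the counts is the distance from the start to the end of each gene. Whether reads over introns were counted is not given in the sources used here, and the order depends on it. In the supernatant of fed mice, Ecm1, a secreted matrix glycoprotein, stood first at 7.33 CPM per kb, and its 3 libraries did not overlap those of the next gene. Hgf, the growth factor that stellate cells send to hepatocytes, followed at 3.24 CPM per kb, then Hand2 at 2.63, the parathyroid hormone receptor gene Pth1r at 2.44 and Lrat, which makes retinyl esters, at 2.34 CPM per kb. Collagens and other matrix genes were spread over the order, with Bgn at 2.22, Sparc at 1.71 and Col5a1 at 1.12 CPM per kb. Col1a1 had 0.212 CPM per kb and Acta2, the smooth muscle actin of contractile cells, 0.0170 CPM per kb. Slit3, a guidance cue whose gene spans 587 kb, was last at 0.00690 CPM per kb. Of the 33 neighbouring pairs in this order, 30 overlapped between libraries, so the order is loose except below Ecm1, Col1a2 and Loxl1.

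**Figure D1:**
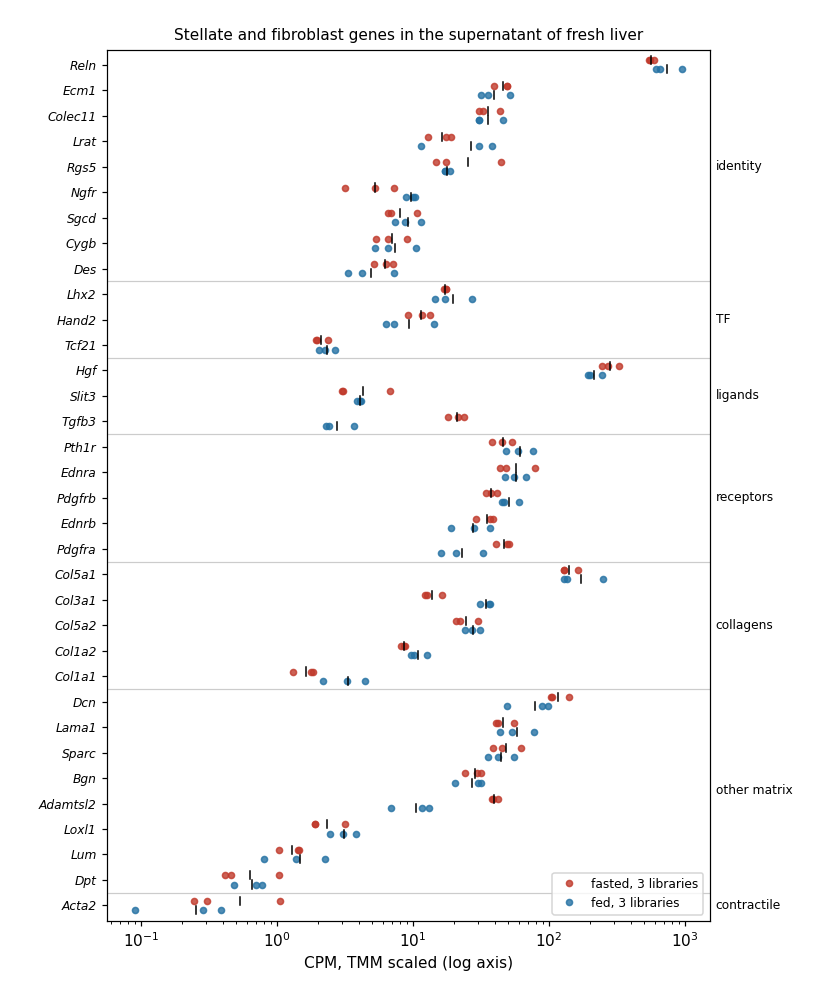
CPM (log axis) of the 34 genes in each supernatant library, with fasted mice (red) above fed mice (blue), 3 libraries each and a black tick at the group mean; genes are grouped by role. The groups stand apart for Tgfb3, Adamtsl2 and Col3a1, and 4 genes in all lie higher and 6 lower in fasted mice without overlap.

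Fasting changed 4 of the 34 genes in the supernatant. Tgfb3, Adamtsl2 and Pdgfra rose and Col3a1 fell, at an adjusted p under 0.05 in edgeR's quasi-likelihood test over 13921 genes. The other 30 did not pass, and the median log2 fold change of the 34 genes was -0.063, against 0.0050 over all genes tested. Of all genes tested, 3.38% rose and 2.84% fell. Counted by libraries that do not overlap, 4 of the 34 genes were higher and 6 were lower in fasted mice, beside 14.2% and 14.9% of all genes tested.

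Tgfb3 encodes the third isoform of transforming growth factor beta and lies at chr12:86056743-86079041 on mm10, on the minus strand. Its level in supernatant was 21.5, 18.1 and 23.8 CPM in fasted mice, against 3.67, 2.30 and 2.40 CPM in fed mice. Every fasted library was far above every fed one, and the groups did not overlap. The log2 fold change was 2.93 ± 0.24 (SE), with an adjusted p of 0.00153 by edgeR, and the call held without any single library. In the order per kb, its mean was 0.949 CPM per kb in fasted and 0.125 CPM per kb in fed supernatant.

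Adamtsl2 encodes a secreted protein without protease activity that binds fibrillin and a latent transforming growth factor beta binding protein, and lies at chr2:27079381-27108613, plus strand. It had 42.3, 38.5 and 38.3 CPM in fasted mice, against 11.7, 6.91 and 13.1 CPM in fed mice. All fasted libraries were close together and above every fed library. The log2 fold change was 1.92 ± 0.29 (SE) with an adjusted p of 0.00695 by edgeR, and no single library ended the call. Pdgfra, the alpha receptor of platelet-derived growth factor and found on stellate cells and fibroblasts, lies at chr5:75152291-75198204, plus strand. It had 51.1, 41.1 and 48.9 CPM in fasted mice, against 32.5, 20.6 and 16.1 CPM in fed mice. The groups did not overlap, and fed library A came nearest to the fasted ones. Its log2 fold change was 1.04 ± 0.30 (SE) with an adjusted p of 0.0460 by edgeR, and the call ended when any library other than fed A was left out, with adjusted p up to 0.145.

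Col3a1 encodes the chain of type III collagen and lies at chr1:45311538-45349706, plus strand. It had 12.2, 12.7 and 16.5 CPM in fasted mice, against 36.6, 31.0 and 36.0 CPM in fed mice. Every fasted library was below every fed library. The log2 fold change was -1.32 ± 0.15 (SE) with an adjusted p of 0.00515 by edgeR, and the call held without any single library.

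**Figure D2:**
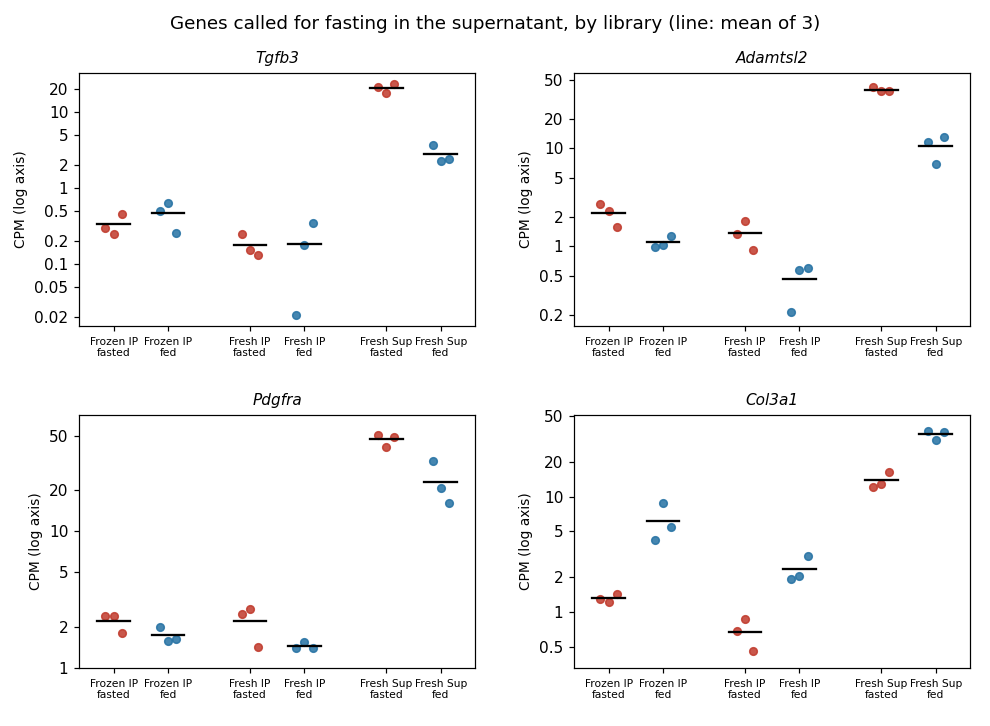
CPM (log axis) of Tgfb3, Adamtsl2, Pdgfra and Col3a1 in all 18 libraries, frozen IP, fresh IP and fresh supernatant from left to right, fasted (red) left of fed (blue); black lines are means of 3 libraries. Tgfb3 differs between fasted and fed mice in supernatant, at 21.2 and 2.79 CPM, and overlaps in both IPs, while Col3a1 is lower in fasted mice in all 3 preparations.

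Promoter sequences are shown for the called genes held in the RefSeq table of GRCm38.p6, to set the 3 regions side by side. Each runs from 250 bases before to 50 bases after the start annotated there, on the gene's own strand. For Pdgfra and Adamtsl2 that start lies upstream of the gene start given above. Of the 34 genes, 25 matched that table. Capitals mark the motifs searched on both strands, namely the TATA box (TATAAA), the CCAAT box (CCAAT) and the GC box (GGGCGG), and no 2 matches overlapped. Adamtsl2 is chr2:27079129-27079428, Pdgfra is chr5:75152001-75152300 and Col3a1 is chr1:45311288-45311587, all on the plus strand.
Adamtsl2: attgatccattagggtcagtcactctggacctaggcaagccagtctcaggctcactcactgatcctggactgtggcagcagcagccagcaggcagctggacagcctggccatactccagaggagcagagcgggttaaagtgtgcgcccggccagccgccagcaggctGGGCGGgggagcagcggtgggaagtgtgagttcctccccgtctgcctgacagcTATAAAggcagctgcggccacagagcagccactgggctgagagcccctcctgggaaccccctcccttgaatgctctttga
Pdgfra: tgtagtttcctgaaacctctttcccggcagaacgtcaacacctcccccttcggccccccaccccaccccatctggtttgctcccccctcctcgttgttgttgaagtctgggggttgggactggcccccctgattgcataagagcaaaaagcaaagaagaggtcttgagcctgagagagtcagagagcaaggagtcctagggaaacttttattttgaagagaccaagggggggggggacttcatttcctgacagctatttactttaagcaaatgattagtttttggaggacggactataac
Col3a1: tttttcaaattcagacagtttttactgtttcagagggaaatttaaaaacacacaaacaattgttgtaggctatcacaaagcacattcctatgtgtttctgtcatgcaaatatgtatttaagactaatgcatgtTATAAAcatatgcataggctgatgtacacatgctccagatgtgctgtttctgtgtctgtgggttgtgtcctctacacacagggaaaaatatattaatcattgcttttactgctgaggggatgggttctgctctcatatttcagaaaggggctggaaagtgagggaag

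The Adamtsl2 window held a GC box beginning 83 bases before the start and a TATA box beginning 30 bases before it. In the Col3a1 window a TATA box began 117 bases before the start, and the Pdgfra window held none of the 3 motifs. Among the 25 genes in the table, 4 held a TATA box, 7 a CCAAT box and 14 a GC box. Of 32851 promoters of the same length, 13.6% held a TATA box, 37.4% a CCAAT box and 35.7% a GC box.

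The genes of stellate identity did not pass the test for fasting in supernatant. Reln, the secreted glycoprotein reelin, had 543, 549 and 587 CPM in fasted mice, against 953, 660.3 and 612 CPM in fed mice. Every fasted library lay below the fed ones, with a log2 fold change of -0.40 ± 0.19 (SE) and an adjusted p of 0.190 by edgeR. Lrat had 12.9, 19.1 and 17.5 CPM in fasted mice, against 38.1, 30.6 and 11.5 CPM in fed mice. Fed library C was the lowest of all 6, so the groups overlapped (log2 fold change -0.68 ± 0.55 (SE), adjusted p 0.338 by edgeR); the gene lies wholly within the long non-coding RNA Rbm46os, and reads of the pair cannot be told apart where strand was not used. Des, the intermediate filament desmin, had 6.32, 5.15 and 7.12 CPM in fasted mice, against 7.31, 4.23 and 3.33 CPM in fed mice, and its groups overlapped. Ngfr, a neurotrophin receptor, had 3.18, 5.27 and 7.29 CPM in fasted mice, against 10.3, 8.93 and 9.98 CPM in fed mice. Every fasted library was below the fed ones, at -0.89 ± 0.34 (SE) on the log2 scale, but the adjusted p was 0.0930 by edgeR. The rest of this set had log2 fold changes from -0.19 for Sgcd, a sarcoglycan, to 0.54 for Rgs5, a regulator of G protein signalling, with Colec11 (a collectin), Ecm1 and Cygb (a globin) at 0.0050, 0.21 and -0.084. Rgs5 had 17.5, 14.7 and 44.5 CPM in fasted mice, against 18.7, 17.1 and 17.2 CPM in fed mice, and fasted library C stood above the other 5 libraries.

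The 3 transcription factors did not pass the test. Lhx2, which keeps stellate cells quiescent in mice, had 16.9, 17.4 and 17.6 CPM in fasted mice, against 27.1, 17.3 and 14.6 CPM in fed mice, and its fasted libraries lay within the fed range. Hand2 and Tcf21 had log2 fold changes of 0.31 ± 0.38 (SE) and -0.14 ± 0.13 (SE); Tcf21 lies wholly within the non-coding gene Gm10824.

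Among the other ligands, Hgf had 245, 270.2 and 327 CPM in fasted mice, against 247, 194 and 199 CPM in fed mice. One fasted library fell within the fed range, and the log2 fold change of 0.40 ± 0.16 (SE) had an adjusted p of 0.117 by edgeR. Slit3 averaged 4.28 ± 2.18 CPM in fasted and 4.05 ± 0.157 CPM in fed mice (SD, n = 3 each), again with fasted library C the highest.

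Of the receptors other than Pdgfra, none passed. Pdgfrb, the beta receptor of platelet-derived growth factor, had 34.2, 37.6 and 41.6 CPM in fasted mice, against 60.5, 45.4 and 47.0 CPM in fed mice. The groups did not overlap, at -0.42 ± 0.15 (SE) on the log2 scale and an adjusted p of 0.0956 by edgeR. Pth1r had 38.3, 45.4 and 53.1 CPM in fasted mice, against 76.0, 48.7 and 58.8 CPM in fed mice, with overlap, at -0.42. The endothelin receptor genes Ednra and Ednrb had log2 fold changes of 0.0090 ± 0.30 (SE) and 0.35 ± 0.30 (SE); Ednrb lies wholly within the non-coding gene Gm35197.

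All 5 fibrillar collagen genes had negative estimates in supernatant, and Col3a1 was the only one to pass. Col1a1, a chain of type I collagen, had 1.32, 1.84 and 1.77 CPM in fasted mice, against 3.30, 2.19 and 4.44 CPM in fed mice. Its groups did not overlap, at -1.0 ± 0.33 (SE) and an adjusted p of 0.0840 by edgeR. Col1a2, the other chain of type I collagen, averaged 8.52 ± 0.260 CPM in fasted and 10.9 ± 1.62 CPM in fed mice (SD, n = 3 each), with no overlap and an adjusted p of 0.160 by edgeR. The type V collagen genes gave -0.28 for Col5a1, with 129, 129 and 163 CPM in fasted mice, against 249, 129 and 136 CPM in fed mice, and -0.17 for Col5a2, with 20.8, 22.2 and 30.3 CPM in fasted mice, against 31.3, 24.2 and 27.3 CPM in fed mice. Both overlapped between groups. Under DESeq2 Col1a1, Ngfr and Pdgfrb also passed, with adjusted p of 0.0169, 0.0167 and 0.0377, which made 3 genes higher and 4 lower, beside 6.33% and 6.40% of 14603 genes.

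Among the other matrix genes, Dcn, the proteoglycan decorin, had 105, 103 and 140.2 CPM in fasted mice, against 98.3, 88.4 and 48.7 CPM in fed mice. The fasted libraries were all above the fed ones, but the log2 fold change of 0.57 ± 0.34 (SE) had an adjusted p of 0.214 by edgeR. Sparc, a collagen-binding protein, had 38.6, 45.2 and 61.9 CPM in fasted mice, against 55.0, 42.3 and 35.4 CPM in fed mice, and Lama1, a laminin chain of basement membranes, had 42.3, 40.9 and 55.0 CPM in fasted mice, against 77.1, 53.9 and 43.6 CPM in fed mice. Both overlapped, at 0.14 and -0.33. Lum, the proteoglycan lumican, had 1.03, 1.45 and 1.42 CPM in fasted mice, against 1.37, 2.25 and 0.809 CPM in fed mice, also with overlap. Bgn (biglycan), Loxl1 (an elastin crosslinking enzyme) and Dpt (dermatopontin) had log2 fold changes of 0.078, -0.41 and -0.043. Acta2 was near its detection limit, with 14, 10 and 43 reads in fasted and 16, 11 and 3 reads in fed supernatant. The log2 fold change was 1.03 ± 0.77 (SE), with overlap and an adjusted p of 0.430 by edgeR.

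Libraries of a feeding state differed in the level of most of the genes at once. Fasted library C held the highest CPM of its group for 27 of the 34 genes, and fed library A for 29. The CPM of the 34 genes summed to 1609, 1635 and 1979 in fasted libraries A, B and C, against 2330.0, 1646 and 1533 in fed libraries A, B and C. Endothelial markers were also highest in those 2 libraries, at 5234 CPM in fasted C and 4123 CPM in fed A, while 8 mesothelial markers summed to 134 CPM in fasted C against 38.7 and 58.4 CPM in fasted A and B. The part of cell composition in these differences was not tested. Without fasted C the test called 4 of the 34 genes (2 higher and 2 lower), and without fed A 4 (3 higher and 1 lower).

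Other matrix and signalling genes also changed singly in the supernatant. Of 54 further matrix genes, 51 were tested, 2 rose and 3 fell, with a median log2 fold change of -0.0050. Tnc, the glycoprotein tenascin C, fell by 1.59 on the log2 scale, to 1.53 CPM in fasted mice, against 4.64 CPM in fed mice. Col14a1, a fibril-associated collagen, fell by 1.33, and Col8a1, a network-forming collagen, by 1.22. Timp3, an inhibitor of matrix metalloproteinases, rose by 1.11. Of 24 genes of transforming growth factor beta and platelet-derived growth factor signalling, Ctgf, a matricellular protein induced by transforming growth factor beta, rose by 2.80, with an adjusted p of 0.0137 by edgeR, and the ligand gene Pdgfb fell by 0.63; the other 22 did not pass. The 21 further stellate markers tested did not pass in supernatant, with a median of 0.089. Among 12 tested portal fibroblast markers, Ntrk2, a neurotrophin receptor, fell by 1.76 and Gsn, which severs actin filaments, by 0.51. This list was mixed: of 14 tested between fractions, 8 were lower and 5 higher in fresh IP than in supernatant. The cell type behind the 2 falls was not tested.

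Fasting was also tested on what remained of the 34 genes in the pull-downs. In fresh IP, 26 of the 34 genes passed the filter on low counts, 1 rose and 2 fell, with a median log2 fold change of -0.39 against 0.011 over all genes. Of 12548 genes tested, 12.4% rose and 12.6% fell. In frozen IP, 32 passed the filter, 1 rose and 9 fell, with a median of -0.36 against 0.0052, and of 12926 genes 11.0% rose and 11.6% fell. Without 1 library, 1 gene was called in fresh IP when fasted A or fed B was left out and 5 when fasted B was, and in frozen IP between 4 (without fasted A or B) and 6 genes were called, with 5 without fed A and 6 without any of the other 3. Of the endothelial markers, 2 of 19 were called lower in fresh IP and 8 of 19 in frozen IP, with medians of -0.62 and -0.79. Hepatocyte markers summed to 24120.0 to 31880.0 CPM in fasted and 18090.0 to 25610.0 CPM in fed fresh IP. The part of carried-over nuclei or free RNA in these changes was not tested.

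Col3a1 fell in all 3 preparations. In frozen IP it had 1.30, 1.21 and 1.44 CPM in fasted mice, against 4.19, 8.84 and 5.42 CPM in fed mice, and in fresh IP 0.687, 0.873 and 0.461 CPM in fasted mice, against 1.93, 2.07 and 3.06 CPM in fed mice. No fasted library reached a fed one in either IP. The log2 fold changes were -2.20 ± 0.32 (SE) in frozen IP and -1.77 ± 0.33 (SE) in fresh IP, with adjusted p of 0.00348 and 0.00969 by edgeR, and both calls held without any single library. Adamtsl2 rose in all 3 preparations, but its calls in the IPs were fragile. It had 2.68, 2.30 and 1.57 CPM in fasted frozen IP, against 0.976, 1.03 and 1.27 CPM in fed frozen IP. In fresh IP it had 1.32, 1.82 and 0.921 CPM in fasted mice, against 0.215, 0.572 and 0.603 CPM in fed mice. The groups did not overlap in either IP. Log2 fold changes were 0.98 ± 0.25 (SE) and 1.61 ± 0.51 (SE) with adjusted p of 0.0487 and 0.0378 by edgeR, and leaving out 1 library ended the call in 5 of 6 cases in frozen IP (all but fasted C, adjusted p up to 0.172) and in 4 of 6 in fresh IP (fasted A or B, fed A or B, up to 0.102).

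Ngfr and the collagens Col1a1 and Col5a1 fell in frozen IP. Ngfr had 0.100, 0.0496 and 0.128 CPM in fasted mice, against 0.472, 0.947 and 0.842 CPM in fed mice, from 4, 2 and 5 reads in fasted and 15, 12 and 39 reads in fed libraries. Every fasted library rested on few reads and lay below each fed library, at -2.95 ± 0.37 (SE) and an adjusted p of 0.00641 by edgeR. Col1a1 had 0.301, 0.273 and 0.488 CPM in fasted mice, against 1.13, 1.89 and 0.863 CPM in fed mice, without overlap, at -1.80 ± 0.39 (SE) and 0.0213 by edgeR. Col5a1 had 6.11, 5.50 and 4.42 CPM in fasted mice, against 11.6, 10.4 and 10.8 CPM in fed mice, without overlap, at -1.04 ± 0.15 (SE) and 0.00664 by edgeR. Col1a2 also lay apart, at -1.09 ± 0.30 (SE), but its adjusted p was 0.0504 by edgeR. The Ngfr and Col5a1 calls held without any single library, and that of Col1a1 ended without fasted A or fasted B, at an adjusted p of up to 0.0864.

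Reln, Pdgfrb, Pth1r, Sparc and Lama1 fell in frozen IP by smaller amounts. Reln had 45.2, 33.6 and 38.1 CPM in fasted mice, against 51.6, 78.9 and 95.8 CPM in fed mice. Pdgfrb had 1.90, 2.50 and 1.18 CPM in fasted mice, against 4.79, 3.08 and 4.40 CPM in fed mice. Pth1r had 2.03, 2.23 and 1.16 CPM in fasted mice, against 3.71, 3.08 and 4.42 CPM in fed mice. In each of the 3 genes every fasted library was below every fed one, at -0.95, -1.15 and -1.06 on the log2 scale. Sparc had 3.31, 3.07 and 2.62 CPM in fasted mice, against 4.82, 7.26 and 4.45 CPM in fed mice. Lama1 had 2.08, 2.16 and 1.39 CPM in fasted mice, against 3.15, 4.65 and 3.47 CPM in fed mice. These 2 matrix genes also showed no overlap, at -0.86 and -0.99. All 5 calls had adjusted p between 0.0221 and 0.0406 by edgeR, and leaving out 1 library ended them in 4 of 6 cases for Reln (fasted B or C, fed B or C) and Pdgfrb (fasted A or C, fed A or C), in 5 of 6 for Pth1r (all but fed B) and Sparc (all but fed C) and in 6 of 6 for Lama1, with adjusted p of at most 0.109. In fresh IP, Lama1 had 1.93, 3.12 and 1.61 CPM in fasted mice, against 4.08, 6.11 and 4.87 CPM in fed mice and fell by 1.14, without overlap, with an adjusted p of 0.0271 by edgeR; the call ended without fasted A or C or fed B or C (adjusted p up to 0.0990). The authors' deposited table lists 1 of the 34 genes as higher and 9 as lower in fasted fresh IP, and 1 as higher and 10 as lower in fasted frozen IP, at an adjusted p under 0.05. Over all 15052 genes with an adjusted p in the authors' deposited table, 13.7% were higher and 18.8% lower in fresh IP, and 13.8% higher and 19.6% lower in frozen IP.

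**Figure D3:**
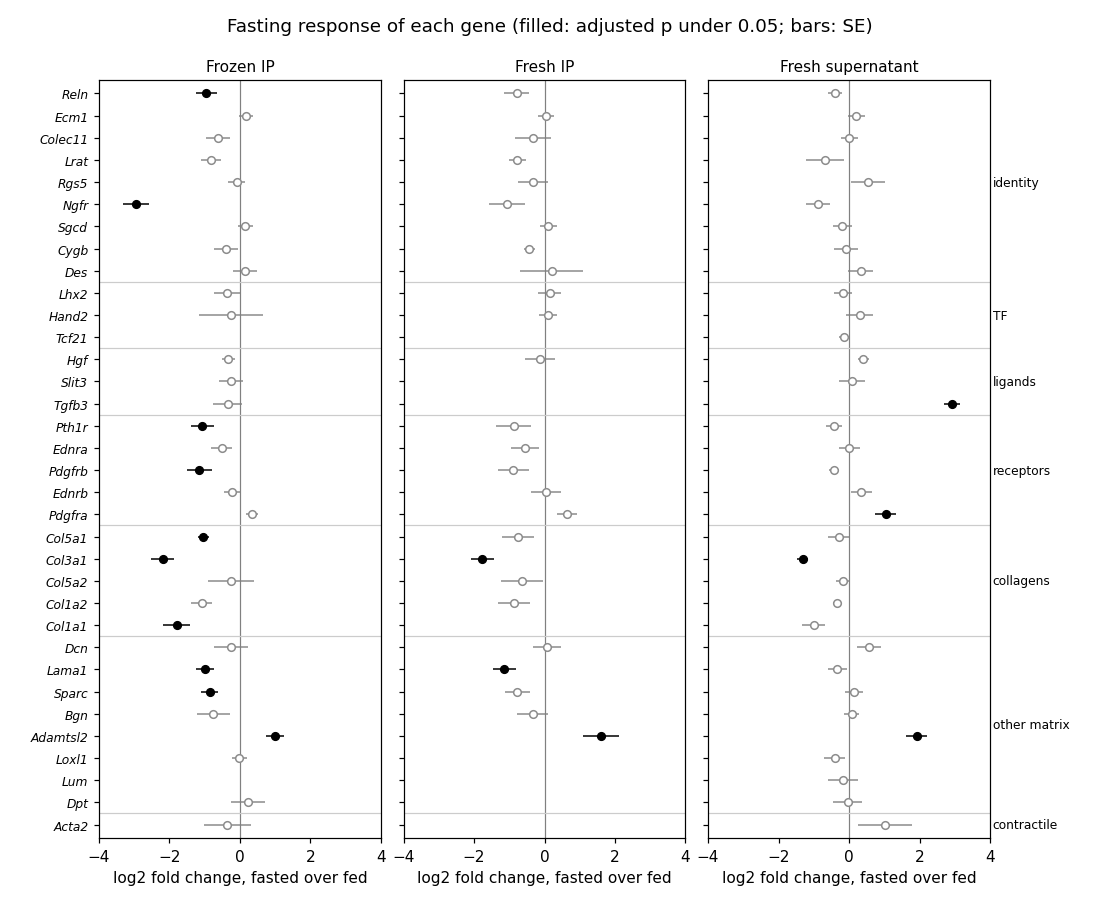
Log2 fold change, fasted over fed, of each gene in frozen IP, fresh IP and fresh supernatant (left to right), with bars of 1 SE; filled points passed an adjusted p of 0.05 in edgeR, and genes under the count filter have no point. Estimates are mostly below 0 in both IPs, where 9 and 2 genes passed as lower, and spread around 0 in supernatant.

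Pdgfra, which rose in supernatant, was not called in the IPs, at 0.34 ± 0.17 (SE) in frozen IP and 0.63 ± 0.29 (SE) in fresh IP. Its groups overlapped in both. Tgfb3 had too few reads in fresh IP to pass the count filter, so its fasting response was not tested there on its own. In fresh IP it had 0.248, 0.155 and 0.132 CPM in fasted mice, against 0.0215, 0.176 and 0.352 CPM in fed mice, which rest on 9, 8 and 4 reads and 1, 4 and 14 reads. Fed library A was the lowest and fed C the highest, so the groups overlapped. In frozen IP it had 0.301, 0.248 and 0.462 CPM in fasted mice, against 0.504, 0.631 and 0.259 CPM in fed mice, with overlap as well (log2 fold change -0.35 ± 0.41 (SE)). The response in fresh IP minus that in supernatant was -2.95 ± 0.80 (SE) on the log2 scale with an adjusted p of 0.0338 by edgeR. The titles give the same mice for both fractions, and with the column letter as a block the call ended, at -2.88 and an adjusted p of 0.0808 by edgeR. Without the block Tgfb3 was the only one of the 34 genes called, beside 5.83% of 14322 genes called lower. Leaving out 1 library ended the call in 9 of 12 cases: fasted IP A, B or C, fed IP B or C, fasted supernatant A or C, and fed supernatant B or C. Its adjusted p then reached 0.288 and its value ran from -3.63 to -1.71, and stood at -1.71 without fed IP library C. For the other 33 genes the difference between fractions had adjusted p of 0.167 or more, and 31 of the 34 differences were negative, with a median of -0.46 against -0.076 over all genes. The differences of other lists were also mostly negative, in 19 of 19 endothelial markers (median -0.97), 17 of 19 lymphocyte markers (-0.56) and 18 of 20 hepatocyte markers (-0.42), while 8 of 18 Kupffer cell markers were negative (0.056).

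All 34 genes were depleted in the pull-down from fresh liver. In fresh IP every gene was lower than in supernatant, with log2 fold changes from -5.46 for Tgfb3 to -2.55 for Ecm1, a median of -4.14 and adjusted p of 0.000120 at most by edgeR. Of 14322 genes tested, 43.0% were lower. In frozen IP 32 of 34 were lower than in fresh supernatant, with a median of -3.79, beside 42.3% of 14349 genes; fraction and preparation differ together there. Scaling moved the whole distribution. With library totals in place of TMM the median of all genes moved to -0.34 for fresh IP and -0.37 for frozen IP, with 4515 genes higher and 7559 lower in fresh IP against 6016 and 6165 under TMM, and 4339 higher and 7641 lower in frozen IP against 5932 and 6066.

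As a share of the mean CPM in supernatant of the same feeding state, the median over 33 genes was 4.89% in fasted and 6.59% in fed fresh IP, and 5.67% in fasted and 8.02% in fed frozen IP. Acta2 was left out of this median, since its supernatant counts were under 10 in 1 library. In fresh IP of fed mice, 29 of the 33 genes lay within 4 to 9%; in frozen IP, 8 genes in fasted and 14 in fed mice were above 10%. In both IPs 30 of 33 genes had a lower share in fasted than in fed mice. The same count over all genes was not made. In fresh IP the medians of most other lists were also lower in fasted than in fed mice. Among them were endothelial (1.82 against 3.92%), lymphocyte (0.782 against 1.20%) and mesothelial markers (3.39 against 9.69%), with Kupffer cell markers at 0.273 against 0.295%. The lists with higher medians in fasted mice were smooth muscle markers (20.1 against 11.4%), genes of transforming growth factor beta and platelet-derived growth factor signalling (44.5 against 36.4%) and genes of retinoid handling (145 against 133%). The medians of the 33 genes by library were 4.44, 6.88 and 3.21% in fasted fresh IP, against 5.84, 6.68 and 7.59% in fed fresh IP, and overlapped. In frozen IP they were 6.75, 6.0 and 4.83% in fasted mice, against 8.60, 9.72 and 8.79% in fed mice, without overlap. Each IP library was set against the mean supernatant level, so the spread between supernatant libraries is not in these values.

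Shares in fresh IP varied between the lists of other cell types. Endothelial markers kept a median of 1.82% in fasted and 3.92% in fed mice, lymphocyte markers 0.782% and 1.20%, and Kupffer cell markers 0.273% and 0.295%. Mesothelial markers kept 3.39% and 9.69%, smooth muscle markers 20.1% and 11.4%, glial markers 11.0% and 125%, and cholangiocyte markers 1183% and 2559%, the last 4 from 4 to 8 genes each. In fasted mice single genes ran from 1.84 to 1015% for smooth muscle, 1.12 to 335% for glial and 5.48 to 2810% for cholangiocyte markers. Those medians thus join depleted and enriched genes. Further stellate markers kept 5.8% and 6.9%, and portal fibroblast markers 4.23% and 5.76%, with single genes up to 295% and 1054% in fasted mice. In frozen IP the median for endothelial markers was 4.21% in fasted and 9.89% in fed mice. These shares are descriptions and the differences between lists were not tested.

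**Figure D4:**
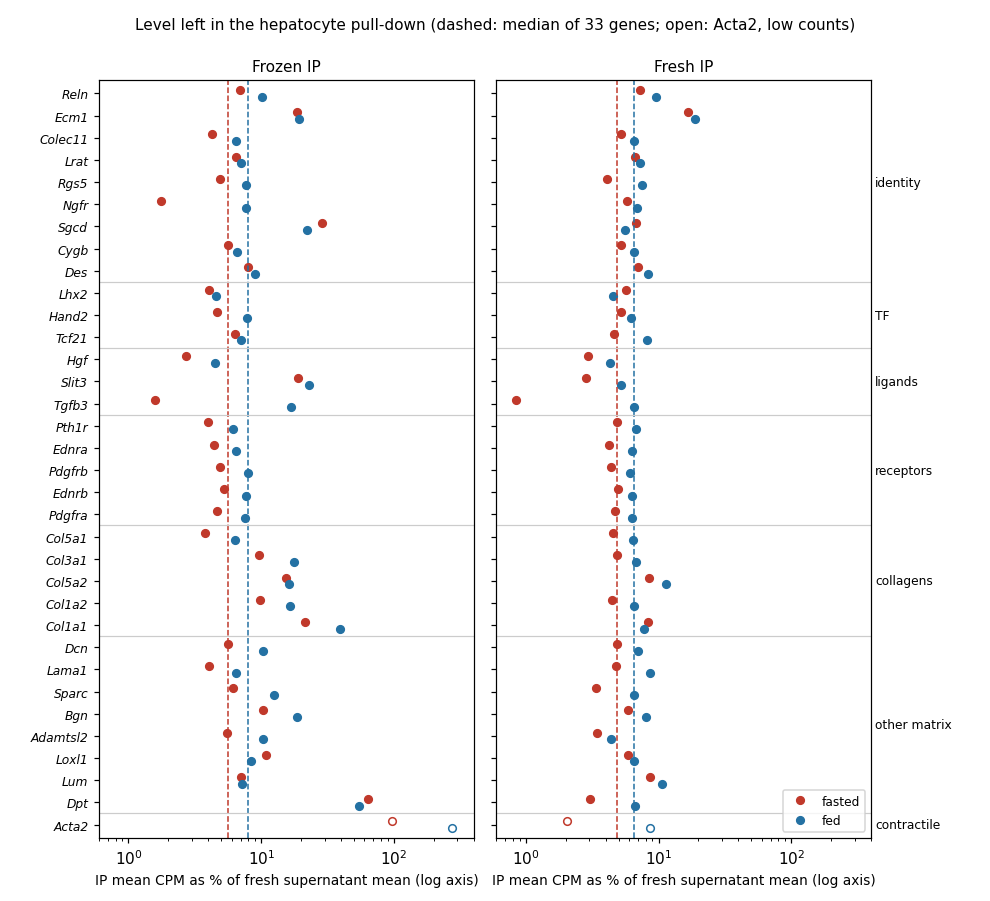
Mean CPM in frozen IP (left) and fresh IP (right) as a percent of mean CPM in fresh supernatant of the same feeding state (log axis), per gene, fasted (red) above fed (blue); dashed lines are medians of 33 genes and open points are Acta2, with few counts. In fresh IP the genes lie close to the medians of 4.89 and 6.59%, with Ecm1 above at 16.6 and 18.8% and Tgfb3 of fasted mice below at 0.842%.

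Ecm1, Col5a2 and Lum kept the highest shares in fed fresh IP, at 18.8, 11.5 and 10.6%. In fresh IP Ecm1 had 8.28, 8.40 and 5.99 CPM in fasted mice, against 6.61, 9.37 and 6.45 CPM in fed mice, and in supernatant 48.8, 39.4 and 48.8 CPM in fasted mice, against 52.1, 35.6 and 31.5 CPM in fed mice. Neither fraction separated fasted from fed mice. Col5a2 had 1.02, 1.26 and 3.88 CPM in fasted mice, against 2.94, 2.77 and 3.77 CPM in fed mice in fresh IP, and 2.03, 1.78 and 7.42 CPM in fasted mice, against 4.34, 4.65 and 4.42 CPM in fed mice in frozen IP. Fasted library C stood apart in both IPs. In supernatant it was also the highest fasted library, at 30.3 CPM against 20.8 and 22.2 CPM, but lay within the range of the fed libraries. Without fasted C the log2 fold change of Col5a2 was -1.23 in frozen IP and -1.46 in fresh IP, with adjusted p of 0.0166 and 0.0159 by edgeR. Lum had 1, 9 and 4 reads in fasted and 6, 6 and 3 reads in fed fresh IP, at 0.0275, 0.175 and 0.132 CPM in fasted mice, against 0.129, 0.264 and 0.0753 CPM in fed mice, too few to read an order.

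Hgf, Adamtsl2 and Lhx2 kept the lowest shares in fed fresh IP, at 4.30, 4.39 and 4.55%. Hgf had 6.57, 12.2 and 6.09 CPM in fasted mice, against 8.35, 6.47 and 12.7 CPM in fed mice in fresh IP, and Lhx2 had 0.990, 1.26 and 0.691 CPM in fasted mice, against 0.945, 0.660 and 1.08 CPM in fed mice. Both overlapped between feeding states. In fasted mice the lowest share was that of Tgfb3. Summed over libraries, its fresh IP level was 0.838% of the supernatant level in fasted mice (95% exact interval 0.518 to 1.28%) and 6.17% in fed mice (3.67 to 9.79%); these intervals cover counting error only.

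The stellate genes Reln, Lrat, Dcn and Des kept 7.28, 6.68, 4.84 and 6.99% in fasted fresh IP and 9.59, 7.28, 7.01 and 8.28% in fed fresh IP. Reln had 38.8, 44.8 and 38.7 CPM in fasted mice, against 52.7, 53.8 and 107 CPM in fed mice, with fed C far above the other libraries and no overlap (adjusted p 0.0739 by edgeR). Lrat had 1.05, 1.34 and 0.921 CPM in fasted mice, against 2.0, 2.38 and 1.46 CPM in fed mice, without overlap (adjusted p 0.0820). Both estimates were negative, at -0.79 and -0.78, and did not pass. Dcn had 5.14, 7.97 and 3.72 CPM in fasted mice, against 4.19, 7.26 and 5.05 CPM in fed mice, and Des had 0.632, 0.601 and 0.0658 CPM in fasted mice, against 0.258, 0.572 and 0.402 CPM in fed mice. The last 2 overlapped, and fasted library C was the lowest for both. Col1a1 rested on 3, 10 and 4 reads in fasted and 10, 4 and 15 reads in fed fresh IP and was not tested there.

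In frozen IP a subset of the genes was higher than in fresh IP. Of 32 genes tested, 8 were higher and none lower at an adjusted p under 0.05 by edgeR (none was lower by DESeq2 or at an unadjusted p under 0.05), with a median log2 fold change of 0.19 against -0.024 over all genes. Of 13162 genes tested, 4.72% were higher. The 8 genes were Acta2, Dpt, Slit3, Sgcd, Col1a1, Col1a2, Col3a1 and Sparc. Of the other 24, Ngfr at -0.77 and Lama1 at -0.32 had the lowest estimates, with unadjusted p of 0.0608 and 0.141 by edgeR. Several stellate genes had estimates near 0, with Reln at 0.029 ± 0.23 (SE), Lrat at -0.015 ± 0.19 (SE), Colec11 at -0.14 ± 0.30 (SE), Ecm1 at 0.12 ± 0.15 (SE) and Hgf at -0.0020 ± 0.23 (SE). Deviations from the group means showed that column letters pair frozen and fresh IP libraries. With the letter as a block, 11 of the 34 genes were higher, Col5a2, Adamtsl2 and Bgn in addition, with adjusted p of 0.00369, 0.00581 and 0.00199, beside 9.41% of all genes higher, and 2168 of all genes were called in place of 679.

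Acta2 was almost absent from fresh IP, with 0, 0 and 1 reads in fasted and 1, 1 and 0 reads in fed mice, and had 13, 13 and 35 reads in fasted and 30, 11 and 13 reads in fed frozen IP. Its level was 0.326, 0.322 and 0.899 CPM in fasted mice, against 0.944, 0.868 and 0.281 CPM in fed mice in frozen IP. The ratio of frozen to fresh IP, from summed reads, was 60.5 in fasted mice (95% exact interval 10.5 to 2429) and 32.5 in fed mice (8.56 to 275). Against fresh supernatant, frozen IP did not differ in the test, at 0.66 ± 0.51 (SE) and an adjusted p of 0.231 by edgeR (0.76 and 0.0173 with the column letter as a block), whereas fresh IP was at 1.60% of it in fasted (0.0400 to 9.24%) and 6.90% in fed mice (0.799 to 27.2%). By feeding state, the ratio of frozen IP to supernatant from summed reads was 0.970 in fasted (0.675 to 1.39) and 2.24 in fed mice (1.41 to 3.63). These intervals cover counting error only. Dpt was also sparse in fresh IP, with 0, 3 and 0 reads in fasted and 2, 2 and 0 reads in fed mice. In frozen IP it had 12, 11 and 25 reads in fasted and 6, 6 and 19 reads in fed mice. Its ratio of frozen to fresh IP was 15.9 in fasted (5.12 to 79.7) and 9.32 in fed mice (3.29 to 36.3). Frozen IP minus supernatant was -0.76 ± 0.32 (SE), with an adjusted p of 0.0523 by edgeR, which was 0.0379 with the column letter as a block. In this comparison Dpt passed in 4 of 6 alternative settings, the block included, and in 5 of 12 fits without 1 library.

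Slit3 averaged 0.806 ± 0.268 CPM in fasted frozen IP and 0.121 ± 0.0299 CPM in fasted fresh IP (SD, n = 3 each), at 2.43 ± 0.18 (SE) over both feeding states. Sgcd averaged 2.32 ± 0.157 CPM in fasted frozen IP and 0.545 ± 0.101 CPM in fasted fresh IP, at 2.06 ± 0.16 (SE). Both had adjusted p of 0.00100 or less by edgeR, and fasted and fed libraries of frozen IP all lay above those of fresh IP. The collagen genes gave 1.79 ± 0.27 (SE) for Col1a1, 1.22 ± 0.27 (SE) for Col1a2 and 1.17 ± 0.23 (SE) for Col3a1, and Sparc 0.90 ± 0.22 (SE). The calls for Col1a2 and Sparc ended without 1 library in 4 and 7 of 12 cases, at adjusted p up to 0.0648 and 0.0801. For Col1a2 these were fasted frozen B, fed frozen A and fed fresh A or B, and for Sparc fasted frozen A or B, fed frozen B, fasted fresh A or C and fed fresh A or B. The other 6 held without any single library.

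Markers of further cell types were also higher in frozen IP. Of 9 tested smooth muscle markers 2 were called, Lmod1 at 3.49 and Myh11 at 2.23; the sum of the 13 listed was 698 to 937 CPM in fasted and 729 to 883 CPM in fed frozen IP, and 683 to 936 CPM in fasted and 799 to 886 CPM in fed fresh IP, with Mylk, a myosin kinase gene also high in the hepatocyte IPs, making up most of it and Actg2 at 0 in every fresh IP library. Of 12 tested portal fibroblast markers 3 were higher, Fbln2 at 1.95, Gsn at 1.95 and Eln at 1.43. Among endothelial markers 17 of 19 were higher, and among Kupffer cell markers 11 of 17. In fed frozen IP, library B had the fewest counts and the highest sums of both lists. Kupffer cell markers summed to 162.8 CPM there, against 60.25 and 64.44 CPM in A and C. Endothelial markers summed to 340.5 CPM, against 241.8 and 242.8 CPM. The 20 hepatocyte markers did not pass, with a median of -0.073. Of 20 further stellate markers tested, Itga8 was called, at 1.13. The part of other cell types in the higher level of the 8 genes was not tested.

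**Figure D5:**
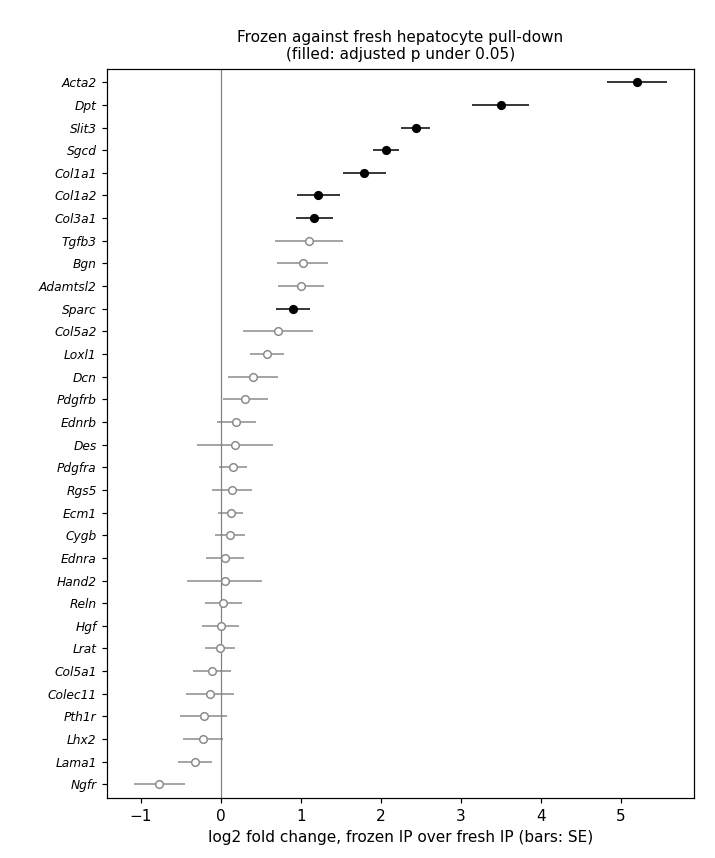
Log2 fold change, frozen IP over fresh IP, averaged over fasted and fed mice, for the 32 genes tested, with bars of 1 SE; filled points passed an adjusted p of 0.05 in edgeR. Acta2 at 5.20 and Dpt at 3.50 lead, both with under 10 reads in all fresh IP libraries together, so their bars understate the counting error. Reln, Lrat and Hgf lie at 0.029, -0.015 and -0.0020.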

How the data were processed

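The authors deposited raw, unnormalised counts per gene for 18 libraries matched to 6 groups of 3; 6 further columns matched no sample and were not used. STAR 2.4.2a, DESeq2 1.24.0 and mm10 are named in the submitters' processing notes, and how reads were counted, strand use included, is not given in the sources used here. The authors' deposited table of fasting effects in the IPs gives log2 fold changes and adjusted p-values, and was used only for counts of genes called.

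Fasting within each preparation, the preparations against each other and the difference in fasting response were tested with edgeR 4.0.16 (R 4.3.3, limma 3.58.1) on all genes, with TMM factors, filterByExpr and Benjamini-Hochberg adjustment at 0.05. DESeq2 1.42.0, other scalings and filters, a replicate block and leave-outs of each library were alternatives. SE was computed from log2 CPM with a prior count of 2, from the variances of all groups in a comparison. It does not come from the edgeR fit that gave the estimate, and the prior count makes it too small at few reads. For Acta2 between frozen and fresh IP it was 0.376 on the log2 scale. The 95% exact interval of that ratio over both feeding states, from summed reads, was 13.9 to 204. The residual percent is the mean CPM in IP over that in supernatant of the same feeding state, summarised over genes with at least 10 counts in every supernatant library. The total counts per library limit the precision of low values. Tests of some comparisons were checked on simulated data, with changes placed only in well-counted genes. That check does not cover genes with few reads, such as Acta2 and Dpt in the IPs.

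The members and the comparison lists were chosen with earlier results of these data known. Values in every library are given for members past the threshold for fasting, for the 3 with the highest and the 3 with the lowest residual percent in fed fresh IP, and for Lrat, Reln, Dcn, Col1a1, Col3a1, Des and Acta2, and a few further genes were named after their values were seen. From each other list at most 4 of the genes with the largest called changes are named.

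Titles share mouse numbers between preparations, but the count columns carry letters that stand in no label, so column letters were checked as pairs. Deviations from group means correlated at 0.277 to 0.653 between frozen and fresh IP of the same letter, against -0.439 to 0.0195 for different letters, and at 0.135 to 0.255 between frozen IP and supernatant of the same letter. Between replicates of a group the chi-square per gene was at least 16.1, so no library was a repeat of another. P-values for fasting within 1 preparation measure the spread between mice. For comparisons between preparations and the difference in response, the main tests took libraries of the same mice as independent. Those p-values therefore do not measure the spread between mice alone.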

Additional observations from a re-analysis of the deposited data

Results flagged for a closer look

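The fasting response of Tgfb3 in fresh IP minus that in supernatant was -2.95 on the log2 scale (adjusted p 0.0338 by edgeR), a difference in response between the 2 fractions. With the column letter as a block it was -2.88 and the adjusted p was 0.0808. Its counts in fresh IP were 9, 8 and 4 in fasted and 1, 4 and 14 in fed mice.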

How the results depend on the processing

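Under the alternatives run, the 226 single-gene results stayed on their side of the threshold in 3539 cases. They lost the threshold in 66 and gained it in 40, and reversed with a call in either fit in 0. Changes of sign where neither fit passed count among the 3539. Col5a2 for fasting in frozen IP is 1 of these, at -0.258 in the main fit and up to 0.072 in an alternative. DESeq2 called 1858 genes for fasting in supernatant in place of 866 (7 of the 34 in place of 4) and 2306 for the difference in fasting response in place of 1367. With all 18 libraries in the fit, 5 of the 34 genes were called for fasting in fresh IP in place of 3. A filter of 1 CPM in 3 libraries left 4 of the 34 called between frozen and fresh IP in place of 8, because it removed the others. With library totals in place of TMM, the median residual percent was 5.12 in fed fresh IP, and 4.42 in fasted and 6.38 in fed frozen IP. Apart from that filter, the cause was not tested.

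With the column letter as a replicate block, 2168 genes were called between frozen and fresh IP in place of 679, and 0 of the 34 for the difference in fasting response, where Tgfb3 had -2.88 and an adjusted p of 0.0808 by edgeR. For fresh IP and supernatant, same letters correlated at 0.0987 to 0.283 and different letters at -0.253 to 0.00773; the lowest same-letter value was under 0.1, while the titles give the same mice in both. No paired analysis was possible within 1 preparation because fasted and fed mice differ.

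Leaving out 1 library gave 197 to 624 genes for fasting in supernatant (197 without fasted A, 541 without fasted B, 473 without fasted C, 316 without fed B, 327 without fed C), 1429 to 2643 in fresh IP (1429 without fasted A, 2050.0 without fed A, 1943 without fed B) and 1168 to 2271 in frozen IP (1168, 1885 and 1810.0 without fasted A, B and C). It gave 12036 to 12329 for fresh IP against supernatant, 11740 to 12268 for frozen IP against supernatant, 409 to 711 for frozen against fresh IP (409 without fed fresh A, 442 without fasted frozen A) and 771 to 1485 for the difference in response (793 without fasted IP A, 771 and 852 without fasted supernatant A and C, 816 without fed supernatant C). Of the 34 genes, 3 to 4 were called for fasting in supernatant, 1 to 5 in fresh IP, 4 to 6 in frozen IP, 34 in fresh IP against supernatant, 32 to 33 in frozen IP against supernatant, 6 to 9 in frozen against fresh IP and 0 to 1 for the difference. The median residual percent ran from 3.84 to 5.66 in fasted and 6.14 to 7.77 in fed fresh IP, and from 5.26 to 6.70 in fasted and 7.72 to 9.51 in fed frozen IP. Depth limited Acta2, Dpt, Lum and Tgfb3 in the IPs, with few reads a library.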
